A study of Mus musculus with 12 samples.

Results

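The 10 genes described here belong to the microtubule cytoskeleton and were followed in the mouse left ventricle under pressure overload, infarction and angiotensin II. They were chosen by symbol in the platform's annotation: the beta-tubulins Tubb2b, Tubb2a, Tubb6 and Tubb5, the alpha-tubulins Tuba1a, Tuba1b and Tuba4a, the microtubule-associated protein Map4, the destabiliser Stmn1 (stathmin) and the ubiquitin hydrolase Uchl1. Of these 10 genes, 9 had a probe set of their own and passed the filter on dim genes, among 11624 genes tested on the array. Tuba1b was represented by 1 probe set that the annotation shares with Gm5620, so it was not tested and its values are given as those of the shared probe set. Uchl1 passed the filter only through its procedure arrays, since the mean of its 6 controls (a signal of 16.2) lay under the limit of 18.1.

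Microtubules are hollow polymers of alpha- and beta-tubulin pairs. Cardiac muscle cells use them for transport, for the shape of the cell and for its stiffness, and a denser and more stable microtubule network is a known feature of the pressure-overloaded heart. Map4 binds along microtubules and stabilises them, whereas stathmin sequesters free tubulin and favours disassembly. Uchl1 is not a tubulin regulator in the strict sense. It is a deubiquitinating enzyme best known from neurons.

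All groups came from Balb/c mice of 6 to 8 weeks, with no transgene or mutation named in the labels. Transverse aortic constriction (TAC), which narrows the aorta and loads the left ventricle, was sampled at 1 day, 1 week and 1 month, each against a sham operation of the same time. Coronary ligation (myocardial infarction, MI) was sampled at 1 week and 1 month, each against its own sham. Angiotensin II (Ang II), infused at 2 mg/kg/day by minipump, was sampled at 1 week against a control that the series text describes as a saline pump. Each of these 12 groups was a single array. The labels do not say whether an array holds the RNA of 1 animal or of several, and the pairing of arrays comes from the model and time in the sample descriptions. The series text and the array labels differ in that the text has a 30 min occlusion followed by reperfusion and places the 1 day time in the MI model, while on the arrays it belongs to TAC. The array labels were followed for the model and time of each array. The 30 min occlusion was kept for both MI groups.

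Arrays had trimmed mean signals between 105 and 131 before scaling. The 3' to 5' signal ratio of beta-actin, a measure of RNA integrity, was 1.18 to 1.33, and that of Gapdh 0.79 to 0.854. The 5' to 3' ratio of the spiked control dap was 0.611 on the TAC 1 day array and 0.574 on its sham, 0.497 with Ang II and 0.55 on its control, and 0.222 to 0.384 on the other 8 arrays. The 12 cardiomyocyte markers all had a probe set, and their summed signal was 106021 to 129929 on procedure arrays and 122241 to 135144 on controls, with none at the floor on any array (Myh6, Myl2 and Tnnt2 among them). Summed atrial markers (5 genes) were 18950 in MI 1 week and 11616 in MI 1 month, 6110 to 10469 in TAC, 7601 with Ang II and 2502 to 5138 in controls. Much of this sum is Nppa, also a marker of load, with 4860 to 10204 on procedure arrays. In TAC 1 day the log2 ratios of Myl7, Myl4 and Sln were -0.19, 0.04 and 0.47. With Ang II they were 0.29, 0.04 and 0.84, and in MI 1 week 2.90, 2.71 and 3.51. In whole tissue, fewer cells of a type and less RNA per cell cannot be told apart. All values below are scaled probe-set signals or log2 ratios of the procedure array to its own control, and signals are not compared between genes.

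Promoter sequence is shown for the 3 tubulins and Uchl1 whose adjusted p fell under the threshold below and that have an entry in RefSeq's table (build GRCm38.p6). Each is the 250 bases before the annotated start, read along the gene's strand; capitals mark the TATA box (TATAAA), the CCAAT box (CCAAT), the GC box (GGGCGG) and the cAMP response element (CRE, TGACGTCA), on either strand.
Tubb2a, chr13:34078009-34078258, minus strand: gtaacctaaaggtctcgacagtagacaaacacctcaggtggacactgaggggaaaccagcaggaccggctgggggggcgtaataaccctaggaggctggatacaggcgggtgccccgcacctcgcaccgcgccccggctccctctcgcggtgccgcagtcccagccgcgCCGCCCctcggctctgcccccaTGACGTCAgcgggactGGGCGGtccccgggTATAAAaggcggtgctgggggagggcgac
Tuba1a, chr15:98953502-98953751, minus strand: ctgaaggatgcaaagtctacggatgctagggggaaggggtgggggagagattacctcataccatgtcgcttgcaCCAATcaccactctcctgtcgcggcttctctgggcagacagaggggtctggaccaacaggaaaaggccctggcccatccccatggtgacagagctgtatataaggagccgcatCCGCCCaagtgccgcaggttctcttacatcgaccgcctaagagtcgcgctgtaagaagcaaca
Tuba4a, chr1:75219295-75219544, minus strand: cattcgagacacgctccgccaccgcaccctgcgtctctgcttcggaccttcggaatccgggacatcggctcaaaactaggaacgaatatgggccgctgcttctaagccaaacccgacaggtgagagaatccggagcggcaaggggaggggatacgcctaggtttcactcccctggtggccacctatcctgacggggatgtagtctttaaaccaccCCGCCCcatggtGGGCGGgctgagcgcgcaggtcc
Uchl1, chr5:66675871-66676120, plus strand: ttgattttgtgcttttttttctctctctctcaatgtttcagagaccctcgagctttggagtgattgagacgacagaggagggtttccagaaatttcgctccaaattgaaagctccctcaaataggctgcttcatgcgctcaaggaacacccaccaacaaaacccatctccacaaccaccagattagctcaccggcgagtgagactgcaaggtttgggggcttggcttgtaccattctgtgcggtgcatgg

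The Tubb2a window holds a TATA box that begins at -29 from the start, GC boxes at -81 and -43 and a CRE at -59, and no motif's letters overlap another's in these 4 windows. A TATA box was present in 12.4% and a CRE in 1.55% of 32851 mouse windows of the same length. Tuba1a has a CCAAT box at -176 (33.8% of windows hold this motif) and a GC box at -63 (32.7%). Tuba4a, the alpha-tubulin that fell, has GC boxes at -35 and -23 and no TATA or CCAAT letters, and the Uchl1 window holds none of the 4 motifs. An AP-1 site (TGANTCA; 6.75% of windows), an E box (CACGTG; 6.02%), a TEAD site (CATTCC; 12.6%), the SRF CArG box (1.47%) and the MEF2 site (2.92%) were found in none of the 4 windows. A match is a string of letters and not a measured site. In the RefSeq order of coding genes Tubb2a and Tubb2b are next to each other on chromosome 13, and Tuba1b, Tuba1a and Tuba1c follow each other on chromosome 15.

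Over the mean of the 6 pairs, the brightest probe sets of the beta-tubulins Tubb2b and Tubb2a and of the alpha-tubulin Tuba1a rose, and that of the alpha-tubulin Tuba4a fell. Tubb2b rose by 1.25 ± 0.33 on the log2 scale (standard error of limma's paired fit, n = 6 pairs; adjusted p = 0.0414). Tubb2a rose by 0.61 ± 0.17 (adjusted p = 0.0481) and Tuba1a by 0.47 ± 0.12 (adjusted p = 0.0393). Tuba4a fell by 0.29 ± 0.07 (adjusted p = 0.0391). The other probe sets of Tubb2a (0.21 ± 0.32, adjusted p = 0.699) and Tuba1a (0.24 ± 0.53, adjusted p = 0.804; shared with Gm6682), both dim, did not pass and were higher in 3 of 6 pairs each. Uchl1 was at 1.10 ± 0.31 (adjusted p = 0.0493), a value that is conditional on its change, since the gene entered the test only through its procedure arrays. Tubb6 (0.94 ± 0.27, adjusted p = 0.0518), Tubb5 (0.42 ± 0.15, adjusted p = 0.104), Map4 (0.20 ± 0.08, adjusted p = 0.123) and Stmn1 (0.16 ± 0.22, adjusted p = 0.673) did not pass.

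Without Uchl1, 3 of the 8 genes whose controls alone pass the filter rose and 1 fell, where 5.04% of the 11411 such genes on the array rose and 5.8% fell (with no such condition, 5.16% and 5.7% of all genes tested, and 10.9% in either direction). The median log2 change of the 8 genes was 0.44, beside -0.01 over the 11411. The scaling of arrays bears on the direction of calls: with signals as deposited, 86.5% of 800 genes called were higher, against 47.5% of the 1262 called here, and Tuba4a then missed the threshold (-0.19, adjusted p = 0.0893), as it did with quantile normalization (-0.16, adjusted p = 0.088). Quantile normalization left Tuba1a as the only call among the 9 genes, while 1136 of all genes (9.77%) were called. The 5 adjusted p-values under the threshold, Uchl1 included, lay between 0.0391 and 0.0493, and 0 of the 9 genes passed in limma's fit without the TAC 1 week, the TAC 1 month, the MI 1 week or the MI 1 month pair, where calls over all genes numbered 256 to 295 against 1262 with all pairs (8 of the 9 had an unadjusted p under 0.05 with all pairs, beside 29% of all genes). An exact two-sided sign-flip test over the 6 pair ratios gave the smallest p that it allows, 0.03125, for Tubb2b, Tubb2a, Tubb6 and Map4, each higher in 6 of 6 pairs (8.67% of all genes were higher and 10.7% lower in 6 of 6), and 0.0625 for Tuba1a, Tubb5, Tuba4a and Uchl1.

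**Figure D1:**
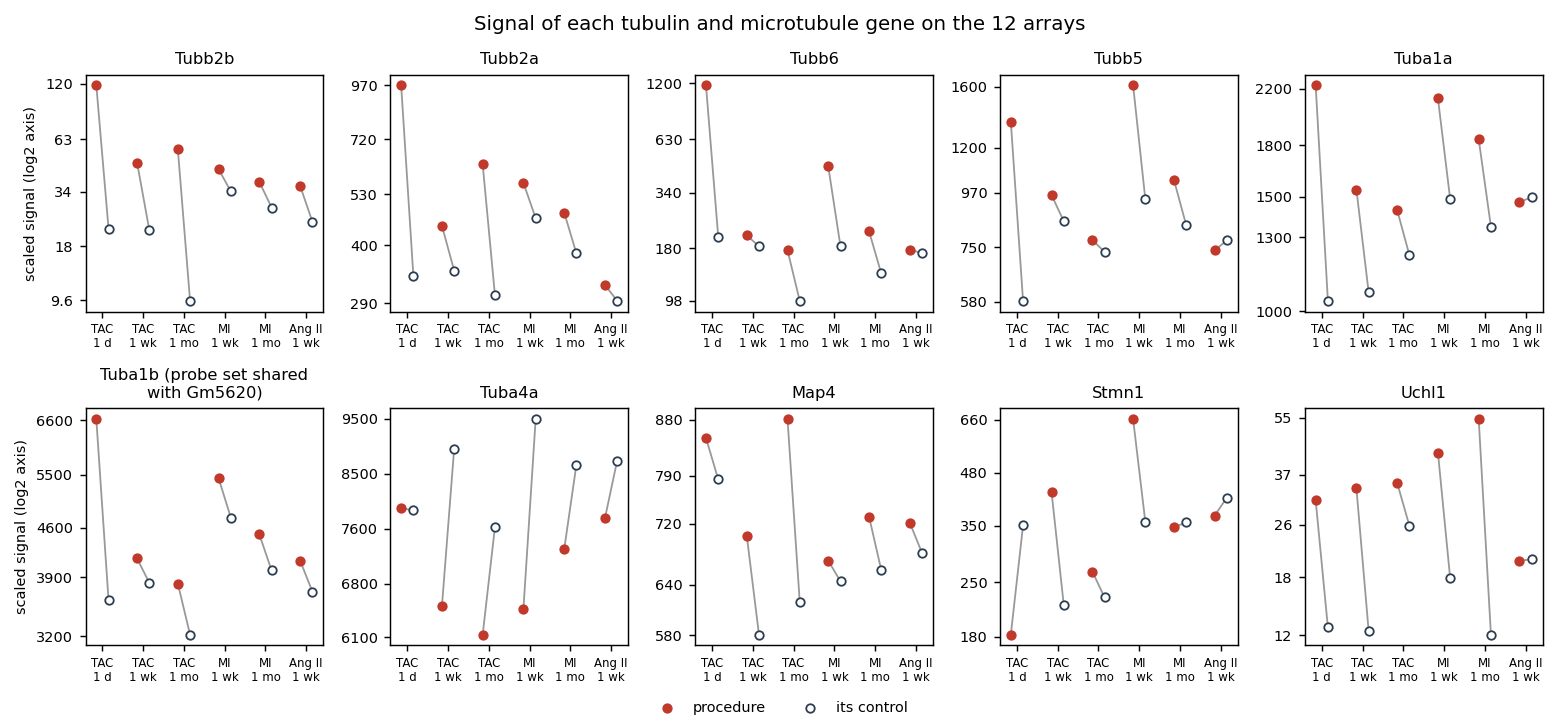
Scaled signal (log2 axis, a separate range for each gene) of the 10 genes in the 6 pairs, with the procedure array (filled) left of its own control (open) and a line joining the pair; each point is 1 array. Tubb2b is higher on every procedure array than on any control, from 36.5 to 118 against 9.55 to 34.2.

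Tubb2b, a beta-tubulin isotype abundant in the developing brain, had the widest spread of pair ratios. Its signal was 118 in TAC 1 day against 22.2 in the sham, 47.8 against 21.8 at 1 week and 55.8 against 9.55 at 1 month. After infarction it was 44.3 against 34.2 in the sham at 1 week and 38.2 against 28.3 at 1 month, and with Ang II it was 36.5 against 24.1 in the control. All 6 procedure arrays lay above all 6 controls, a separation shown by 1.36% of the genes tested. The log2 ratios were 2.41, 1.13 and 2.55 in TAC at 1 day, 1 week and 1 month, 0.37 and 0.43 in MI at 1 week and 1 month and 0.60 with Ang II.

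The 1 month sham of TAC was the lowest of the Tubb2b controls, and controls of the same time differed by up to 1.57 in log2. Set against the median of the 6 controls (23.1), a comparison added after seeing the data, TAC 1 month was at 1.27, TAC 1 day at 2.35, TAC 1 week at 1.05, MI 1 week at 0.94, MI 1 month at 0.73 and Ang II at 0.66. The 3 TAC arrays were the highest of the 6 by this measure too, though the 1 month value was much lower than its pair ratio of 2.55. A dimmer probe set shared with the pseudogene Tubb2a-ps2 was at the floor in the MI 1 week sham and the Ang II control, so its ratios in these 2 pairs depend on the floor. In the pairs without a floor value its log2 ratios were 0.75, 0.43 and -0.02 in TAC at 1 day, 1 week and 1 month. The ratio in MI 1 month was -0.51. On this probe set MI 1 week was the highest array (35.4), and the TAC arrays had 19.7 to 26.8. The 2 probe sets therefore disagree on TAC 1 month and on the order of the models. The mean change of the dimmer one was 0.71 ± 0.46 (adjusted p = 0.342).

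Tubb2a, the neighbouring beta-tubulin gene, had the same order of signals within TAC. The signal was 969.6 in TAC 1 day against 338 in the sham, 446 against 348 at 1 week and 626 against 304 at 1 month. MI hearts had 565 against 465 in shams at 1 week and 479 against 382 at 1 month, and Ang II hearts 321 against 294. The second, dim Tubb2a probe set had log2 ratios of 1.59 in TAC 1 day, -0.60 in TAC 1 week, 0.86 in TAC 1 month, -0.24 in MI 1 week, 0.16 in MI 1 month and -0.48 with Ang II, so the 2 probe sets disagree in sign in 3 pairs. For the brighter one, the Ang II array lay among the controls, and so did TAC 1 week, while the other 4 procedure arrays were above all 6 controls. Across the 6 pair ratios the Pearson correlation with Tubb2b was 0.91, a description of 6 pairs only; the brighter probe set's name carries the suffix that Affymetrix gives to probes shared by several transcripts, so related tubulins may contribute to it.

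Tubb6, a beta-tubulin of broad expression, reached 1173 in TAC 1 day against 205 in the sham, a log2 ratio of 2.52, and 461 against 183 in MI 1 week, a ratio of 1.33. The other pairs were closer: 208 against 184 in TAC 1 week, 176 against 98 in TAC 1 month, 218 against 134 in MI 1 month and 176 against 169.8 with Ang II. Against the median of the 6 controls the TAC 1 month value was -0.01, while its own sham, the lowest control, gave a ratio of 0.84. A second, dim Tubb6 probe set ran the other way, at or below its control in each pair and at the floor in TAC 1 week (mean change -1.24 ± 0.43, adjusted p = 0.0932), so the 2 probe sets disagree.

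Tubb5, the beta-tubulin that most dividing cells express, was likewise highest in MI 1 week (1612 against 941 in the sham) and TAC 1 day (1357 against 583). It had 960.2 against 848 in TAC 1 week, 777 against 734 in TAC 1 month, 1033 against 835 in MI 1 month and 740.1 against 775 with Ang II. The second Tubb5 probe set rose, higher in 6 of 6 pairs with a mean change of 0.59 ± 0.09 (adjusted p = 0.00723). It had no peak in TAC 1 day, where its signal of 286 lay within the range of its controls (193 to 362). Its log2 ratios were 0.56, 0.62 and 0.56 in TAC at 1 day, 1 week and 1 month. They were 0.87 and 0.61 in MI at 1 week and 1 month, and 0.29 with Ang II. Macrophage markers moved in the same pairs as the brightest probe sets of Tubb6 and Tubb5. Their median log2 ratio (8 genes) was 1.46 in TAC 1 day and 1.77 in MI 1 week. It was 0.27 to 0.99 in the other 4 pairs. Their summed signal was 10001 in MI 1 week, 5815 in MI 1 month, 4167 to 5413 in TAC, 3281 with Ang II and 2731 to 4446 in controls, with no value at the floor. The part of macrophages in the beta-tubulin values was not tested.

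Tuba1a and the shared Tuba1b probe set had their highest ratios in TAC 1 day. Tuba1a, a major alpha-tubulin, had 2225 in TAC 1 day against 1037 in the sham, 1538 against 1069 at 1 week and 1430.2 against 1219 at 1 month. In MI it had 2124 against 1487 in the sham at 1 week and 1838 against 1348 at 1 month, and with Ang II 1473 against 1496 in the control. The lowest ratios were those of TAC 1 month and Ang II, whose arrays lay within the range of the controls. The probe set shared by Tuba1b and Gm5620 had 6625 in TAC 1 day against 3609 in the sham, with log2 ratios of 0.88 there and 0.12 to 0.25 in the other 5 pairs (mean change 0.29 ± 0.10, adjusted p = 0.0797). The Tuba1a probe set carries the suffix for probes that may cross-hybridise, so the Tuba1a and Tuba1b values may share signal.

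Tuba4a, an alpha-tubulin isotype of muscle and other non-dividing cells whose gene encodes no final tyrosine, moved the other way. It had 6494 in TAC 1 week against 8935 in the sham, 6132 against 7621 in TAC 1 month, 6464 against 9494 in MI 1 week, 7290.4 against 8658 in MI 1 month and 7766 against 8729.7 with Ang II. In TAC 1 day Tubb2b, Tubb2a, Tubb6, Tubb5 and Tuba1a were all called 2-fold higher. None of the 6 tubulins tested outside the chosen genes was called there, where 5.7% of all genes were called higher and 6.4% lower. Their log2 ratios went both ways: Tubb4b 0.64, Tube1 0.56, Tuba8 -0.006, Tubb4a -0.25, Tubd1 -0.31 and Tubg1 -0.45. The summed signal of the list of other tubulins was 4462 in TAC 1 day, the highest of the 12 arrays, against 3505 in the sham. Tuba4a was level with its sham in that pair (7923 against 7893). Its second probe set was lower in 6 of 6 pairs and fell by 0.40 ± 0.09 (adjusted p = 0.0243), and the third and dimmest had -0.41 ± 0.21 (adjusted p = 0.22). The median of the 12 cardiomyocyte markers was -0.27 in TAC 1 week, -0.29 in TAC 1 month, -0.22 in MI 1 week, -0.12 in MI 1 month, -0.02 with Ang II and -0.04 in TAC 1 day. The part of the cardiomyocyte level in the Tuba4a values was not tested.

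Map4 differed little from its controls. Its signal was 849.6 in TAC 1 day against 784 in the sham, 704 against 581 at 1 week and 881 against 619 at 1 month, and the ratio of 0.51 at 1 month was its largest. MI hearts had 670.1 against 644 in shams at 1 week and 729.7 against 658 at 1 month, and Ang II hearts 721 against 680.3, with ratios of 0.06 to 0.15 in these 3 pairs. Of 4 other Map4 probe sets, 2 had a positive and 2 a negative mean change, from -0.13 to 0.06.

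Stmn1 did not pass, and the ratios of its brightest probe set after TAC had opposite signs at different times. Its signal was 183 in TAC 1 day against 351 in the sham, the lowest of all 12 arrays, then 427 against 217 at 1 week and 266 against 228 at 1 month. In MI it was 662 against 358 in the sham at 1 week, the highest of all arrays, and 347 against 357 at 1 month, and with Ang II 372 against 414 in the control. The sham of TAC 1 week was at the bottom of the controls, which differed from each other by up to 0.93 at the same time. Against the median of the 6 controls TAC 1 week was at 0.27 and MI 1 week at 0.90. A second, dim Stmn1 probe set did not show the change of sign after TAC. Its log2 ratios were -0.17, -0.44 and -1.03 in TAC at 1 day, 1 week and 1 month. They were 0.48 and 1.11 in MI at 1 week and 1 month, and -0.69 with Ang II. Stathmin is known to be high in dividing cells, and the 9 proliferation markers tested had a median log2 ratio of 2.44 in TAC 1 week and 1.45 in MI 1 week, 0.17 in TAC 1 day, 1.17 in TAC 1 month, 0.44 in MI 1 month and 0.55 with Ang II. The summed signal of the 13 genes of this list with a probe set was 914 in TAC 1 week and 1140 in MI 1 week, 253 to 476 on the other procedure arrays and 162 to 387 in controls. Among the 9 markers tested, Cdk1, Plk1, Kif23 and Prc1 had a control mean under the filter's limit of 18.1. They entered the test only through their procedure arrays, so the median is conditional on their change. In the list 13 of 156 values were at the floor. The part of dividing cells in the Stmn1 values was not tested.

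Uchl1 was the only one of the 9 genes with its largest ratio in MI 1 month. The signal there was 54.6 against 12 in the sham, and in MI 1 week it was 43.1 against 17.9. TAC hearts had 30.9 against 12.7 in the sham at 1 day, 33.6 against 12.4 at 1 week and 34.9 against 25.8 at 1 month, and Ang II hearts 20.2 against 20.4 in the control. Uchl1 entered the test only through its procedure arrays. Of these, the 5 TAC and MI arrays lay above all 6 controls and the Ang II array among them. These signals are near the median of all probe sets (25.9), and controls of the same time differed by up to 1.10 in log2. Of the neuron and Schwann markers, 3 of 10 with a probe set were bright enough to test, 29 of their 120 values were at the floor, and their summed signal was 268 to 332 on procedure arrays and 262 to 341 on controls. Snap25, a synaptic protein, had at most 7.96 on procedure arrays and 11.1 on controls. Dbh, an enzyme of noradrenaline synthesis, had 86.2 to 144 on procedure arrays and 85 to 151 on controls, and Stmn2, a neuronal stathmin, 45 to 93.5 on procedure arrays and 66.3 to 121 on controls. The Schwann cell factor Sox10 was dim, with 10.6 to 45.1 on procedure arrays. Its log2 ratio was 1.31 in MI 1 month, 0.61 in MI 1 week and -1.49 in TAC 1 day. In TAC 1 week it was at -0.20, where Uchl1 was at 1.44. In MI 1 month, the pair with the highest Uchl1 ratio, the other markers tested, Dbh and Stmn2, were at -0.42 and -0.13. The markers too dim to test went both ways there. The Schwann marker S100b was at -0.44, Th at -0.09 and Snap25 at 0. Nefl was at 1.58, Elavl4 at 1.25, Prph at 0.96 and Nefm, at the floor on all 6 controls, at 0.49. Fibroblast markers had medians of 0.99 and 0.89 in TAC 1 week and 1 month, 1.18 and 1.08 in MI 1 week and 1 month, 0.40 in TAC 1 day and 0.56 with Ang II, and the part of any of these cell types in the Uchl1 values was not tested.

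**Figure D2:**
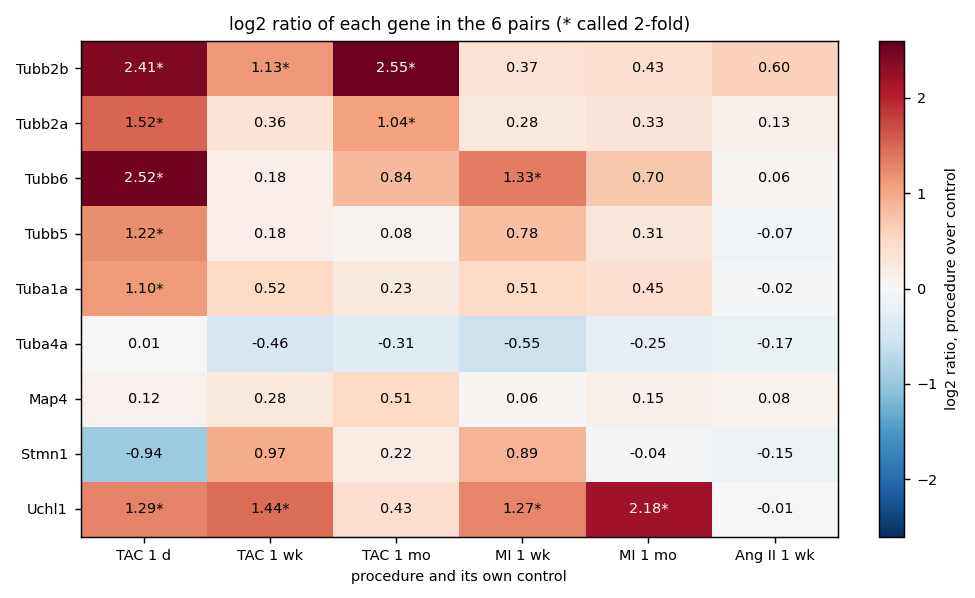
Log2 ratio of the procedure array to its own control for the 9 genes tested (rows) in the 6 pairs (columns), each cell 1 pair of arrays; an asterisk marks a 2-fold call. The TAC 1 day column has the most calls, 6 of 9, and the Ang II column none.

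Single pairs have no replicate and were only described. A 2-fold call needed a log2 ratio of 1 or more in either direction, a brighter array above the median signal, and a procedure array higher or lower than every control. In TAC 1 day 6 of the 9 genes were called higher (Tubb2b, Tubb2a, Tubb6, Tubb5, Tuba1a and Uchl1), beside 5.7% of all genes. In TAC 1 week 2 were called (Tubb2b and Uchl1; 2.18% of all genes), in TAC 1 month 2 (Tubb2b and Tubb2a; 1.91%), in MI 1 week 2 (Tubb6 and Uchl1; 6.01%), in MI 1 month 1 (Uchl1; 2.89%) and with Ang II 0 (0.946%). None of the 9 was called lower in any pair, where 6.4% of all genes were in TAC 1 day, 0.826% in TAC 1 week, 1.26% in TAC 1 month, 1.3% in MI 1 week, 0.619% in MI 1 month and 0.774% with Ang II. Without Uchl1 the counts were 5, 1, 2, 1, 0 and 0 of 8 in the same order of pairs, beside 5.32%, 1.8%, 1.66%, 5.53%, 2.63% and 0.701% of the 11411 genes whose controls pass the filter. The median ratio of the 9 genes was 1.22 in TAC 1 day (all genes -0.07), 0.36 in TAC 1 week, 0.43 in TAC 1 month, 0.51 in MI 1 week, 0.33 in MI 1 month and -0.01 with Ang II.

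The 3 models were then compared in a fit that gave each model an effect of its own (TAC has 3 pairs and MI has 2, while Ang II rests on 1). Tubb2b rose in TAC by 2.03 ± 0.35 (adjusted p = 0.0356) and was at 0.40 ± 0.43 in MI (adjusted p = 0.687) and 0.60 ± 0.60 with Ang II. Tubb2b alone of the 9 genes passed in TAC, where 2.34% of all genes passed (1.08% rose and 1.26% fell). Tubb2a just missed the threshold in TAC (0.97 ± 0.20, adjusted p = 0.0508) and was at 0.30 ± 0.24 in MI and 0.13 ± 0.34 with Ang II. Of the others, Tubb6 was at 1.18 ± 0.38 in TAC (0.51 without the TAC 1 day pair) and 1.02 ± 0.46 in MI. Tubb5 was at 0.49 ± 0.21 in TAC (0.13 without that pair) and 0.54 ± 0.26 in MI. Uchl1 was at 1.05 ± 0.39 in TAC, 1.73 ± 0.48 in MI (adjusted p = 0.131) and -0.01 ± 0.68 with Ang II.

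No gene of the 9 passed in MI, where 0.826% of all genes rose and 0.155% fell (0.981% in all), and 3 had an unadjusted p under 0.05, beside 17.3% of all genes. With Ang II limma called 0 of all 11624 genes (284 at an unadjusted p under 0.05, or 2.44%) and 0 of these 9 (0 at an unadjusted p under 0.05). The calls depended on single pairs. Without the TAC 1 day pair, Tubb6 (1.02, adjusted p = 0.011), Tubb5, Tuba1a and Tuba4a passed in MI, where 12.9% of all genes did. Tubb2b (1.84), Tubb2a (0.70) and Tuba4a (-0.39) passed in TAC in the same fit, beside 5.51% of all genes. Without the TAC 1 month, MI 1 week or MI 1 month pair 0 genes of the 9 passed in TAC (0.172% to 0.31% of all genes did), and without the TAC 1 week pair Tubb2a alone did (0.344%).

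The difference between TAC and MI for Tubb2b was 1.63 ± 0.55 with a 95% interval from 0.36 to 2.90, and did not pass (adjusted p = 0.983). Without the pair as a block it was 0.72, and that of Stmn1, -0.80, was then larger in size. For Tubb2a it was 0.67 ± 0.31 (interval -0.05 to 1.39; 0.31 without the block), for Tubb6 0.16 ± 0.60 (-1.22 to 1.55) and for Uchl1 -0.67 ± 0.62 (-2.11 to 0.76). The other 5 genes had differences from -0.34 (Stmn1) to 0.20 (Map4). For TAC minus Ang II, Tubb2b was at 1.43 ± 0.70 (-0.18 to 3.04), Tubb6 at 1.12 ± 0.76 (-0.63 to 2.88), Uchl1 at 1.07 ± 0.79 (-0.75 to 2.88) and Tubb2a at 0.85 ± 0.40 (-0.07 to 1.76). No difference between models passed for any of these 9 genes, or for any of the 11624 genes in limma's fit: the counts at an unadjusted p under 0.05 were 527 (4.53%) for TAC minus MI (1 of the 9, Tubb2b), 446 (3.84%) for TAC minus Ang II (0 of the 9) and 556 (4.78%) for MI minus Ang II (0 of the 9). Intervals this wide leave sizes of more than 1 log2 unit in reach for Tubb2b, Tubb2a, Tubb6, Uchl1 and Stmn1. In TAC minus Ang II they do so for Tubb5 (up to 1.55) and Tuba1a (up to 1.35) too. A model effect that passed in TAC and not in MI is therefore not shown to differ.

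**Figure D3:**
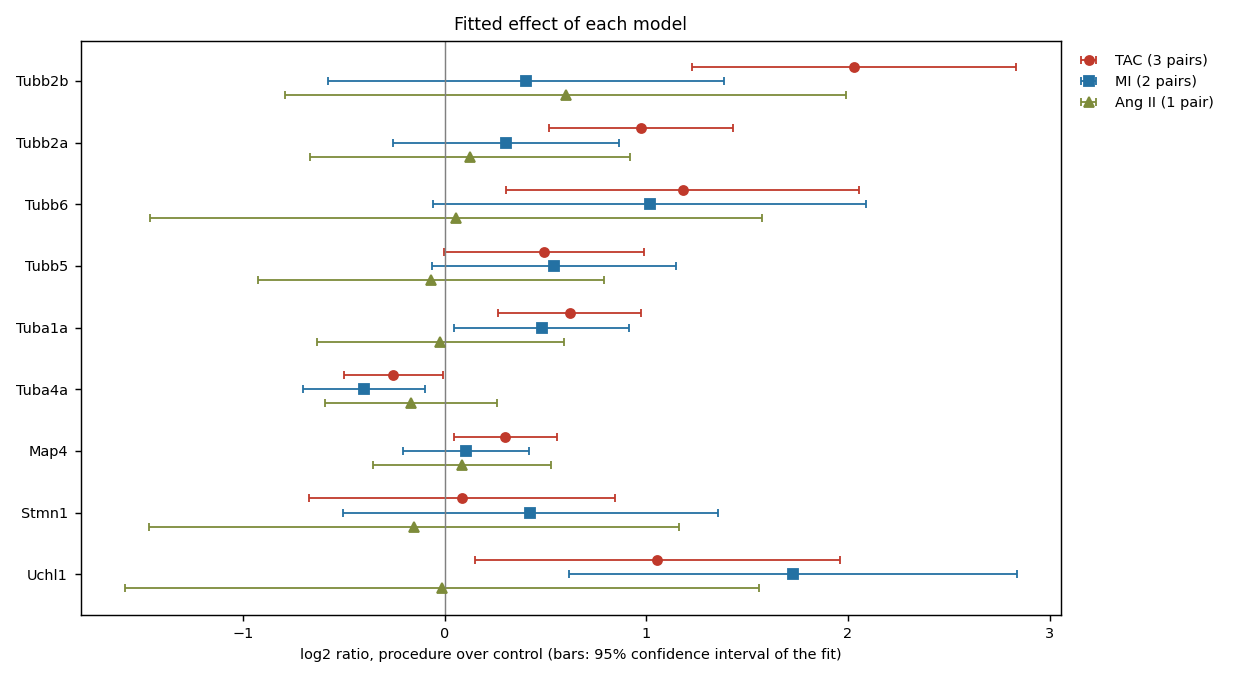
Fitted log2 ratio of procedure over control (horizontal axis) for each of the 9 genes in TAC, MI and Ang II, with points for the estimate and bars for the 95% confidence interval of the fit, whose spread is shared by all pairs. Tubb2b in TAC (2.03) stands furthest from 0, and the intervals of TAC and MI overlap for every gene.

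At matched times the order of the models differed between genes. At 1 week Tubb2b was higher in TAC than in MI by 0.76 and Map4 by 0.22, whereas Tubb6 was lower in TAC by 1.15 and Tubb5 by 0.60 (log2 ratio of TAC minus that of MI). The other 5 genes differed by 0.01 to 0.17. At 1 month the TAC ratio exceeded that of MI by 2.12 for Tubb2b and 0.71 for Tubb2a, and was lower by 1.75 for Uchl1. TAC 1 week exceeded Ang II 1 week in 8 of the 9 genes, most for Uchl1 (1.46) and Stmn1 (1.13), and Tuba4a was the exception (-0.29). These are differences between single pairs with separate controls and were not tested. Several were smaller against the median of the 6 controls. By that measure Tubb2b was at 1.27 in TAC 1 month and 0.73 in MI 1 month, and Tubb2a at 0.87 and 0.48. Uchl1, whose TAC 1 month sham was its highest control (25.8), was at 1.21 and 1.86. Stmn1 was at 0.27 in TAC 1 week and 0.07 with Ang II, and Uchl1 at 1.16 and 0.43.

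Other genes of the microtubule system mostly did not pass the test. Of 150 genes in 8 lists, 116 were tested, and 6 rose and 4 fell over the mean of the 6 pairs (8.62% passed, beside 10.9% of all genes). Among the other tubulins 0 of 6 tested rose and 1 fell: Tuba8, an alpha-tubulin of heart and skeletal muscle, changed by -0.36 ± 0.10 (adjusted p = 0.0434), lower in 6 of 6 pairs like the second Tuba4a probe set. Tubb4b was at -0.04 and Tubb4a at 0.25 without passing. Of the 22 genes of tubulin folding, which include the subunits of the CCT chaperonin and the tubulin cofactors, 0 passed in limma's fit and none was called 2-fold in any pair, with a list median of 0.17 in TAC 1 day and -0.14 to 0.04 elsewhere.

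Among 14 enzymes that modify tubulin, 1 rose and 1 fell. Ttll1, a subunit of the tubulin polyglutamylase, changed by -1.27 ± 0.23 (adjusted p = 0.0126), lowest in TAC 1 day (-2.70), and Ttll7, which also adds glutamates, rose by 0.59 ± 0.16 (adjusted p = 0.0481). Agbl5, a deglutamylase, was called 2-fold lower in TAC 1 day (-2.07) without passing the test. In the 29 microtubule-associated and plus-end genes tested, 1 rose and 1 fell: the doublecortin-like kinase Dclk1 rose by 1.19 ± 0.22 (adjusted p = 0.0132), 2-fold in 4 pairs and highest in TAC 1 day (1.81) and MI 1 week (1.64), and Map7d1 changed by -0.35 ± 0.09 (adjusted p = 0.0337). Clasp2, a plus-end protein, was called 2-fold lower in TAC 1 day (-1.13).

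Transport motors were the list with the most rises of the 8, 4 of 23 tested and 0 lower, beside 5.16% and 5.7% of all genes. Kif5b, the heavy chain of conventional kinesin, rose by 0.37 ± 0.07 (adjusted p = 0.0184), the dynein light intermediate chains Dync1li1 and Dync1li2 by 0.39 ± 0.08 (adjusted p = 0.02) and 0.27 ± 0.08 (adjusted p = 0.0489), and the dynein light chain Dynll1 by 0.38 ± 0.09 (adjusted p = 0.0278), each higher in 6 of 6 pairs. The list median was 0.02, and 2 other kinesin heavy chains were called 2-fold without passing: Kif5c higher in TAC 1 week, where its sham was at the floor and no ratio is given, and with Ang II (1.15), and Kif5a lower in MI 1 week (-1.92). Pcnt, the pericentrin scaffold of the centrosome, was the 1 of 13 nucleation genes to pass and changed by -0.48 ± 0.11 (adjusted p = 0.0263), and Cep192, another centrosome scaffold, was called 2-fold higher in MI 1 week (1.26) and MI 1 month (1.03). Stathmins other than Stmn1 and severing enzymes had 0 of 7 tested past the threshold (limma), with Stmn2 called 2-fold lower in TAC 1 day (-1.42), and the Uchl1 family 0 of 2.

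**Figure D4:**
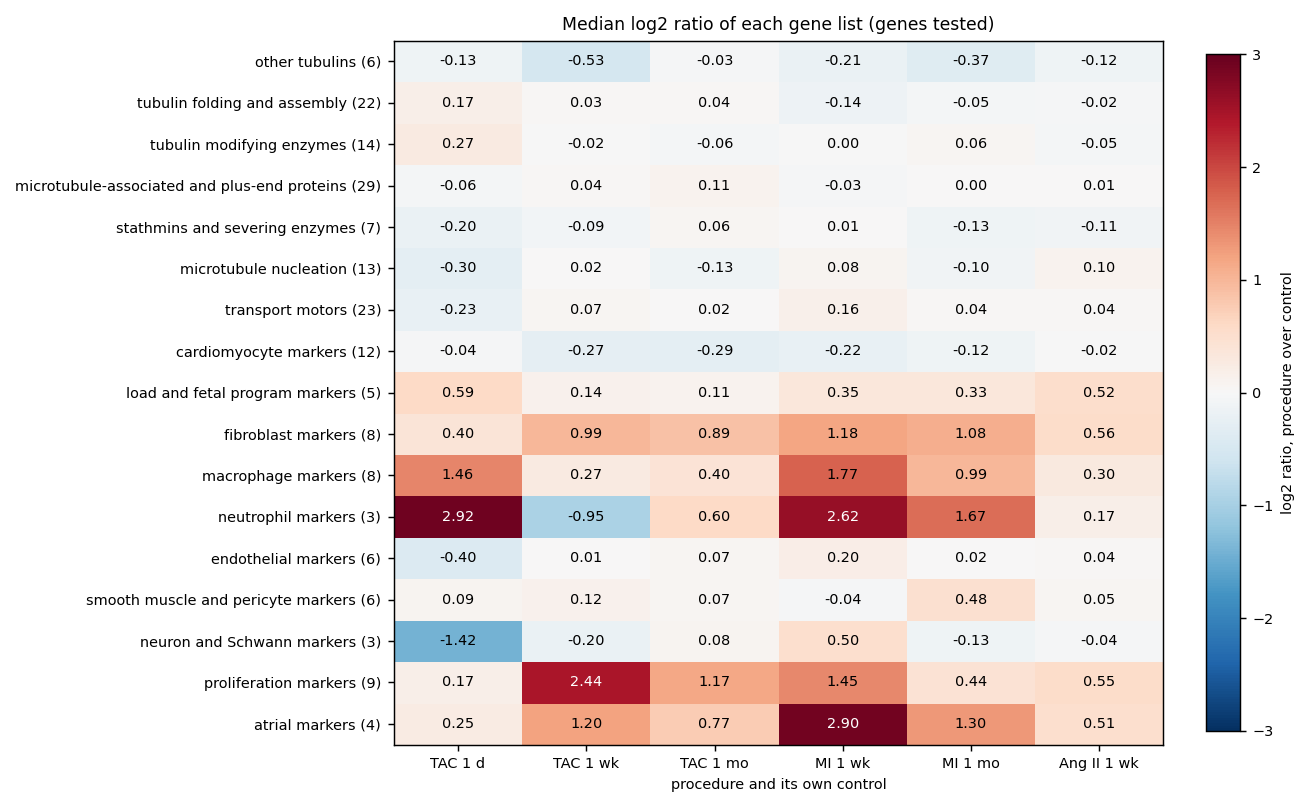
Median log2 ratio of each list of microtubule genes and of cell type markers (rows, number of genes tested in parentheses; lists with under 3 genes tested are left out) in the 6 pairs (columns). The microtubule lists lie between -0.53 and 0.27, while macrophage, neutrophil, proliferation and atrial markers reach 1.77 to 2.92 in single pairs.

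Genes whose signal ran most like that of a tubulin over the 12 arrays were sought for the 4 genes with the widest spread of pair ratios. For Tubb2b these were Smad1 (Pearson r = 0.95), Ptpra (0.91) and Sntb1 (0.91). Those nearest Tubb6 were Rnh1 (0.98), Tgfbi (0.98) and Ctdsp2 (0.97). Uchl1 ran most like Kcne4 (0.94), Ltbp2 (0.91) and Meox1 (0.90), and Stmn1 like Lamb1 (0.89), Vstm2b (0.88) and Rrm1 (0.87). These values are a description of likeness among 11624 genes, without a test.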

How the data were processed

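Total RNA (5 µg) of 12 left ventricle samples was labelled for 1-colour Affymetrix arrays, per the labels. The deposited values are intensity, a linear signal per probe set. The submitters' processing notes name GCOS, and its algorithm and scaling settings are not known here. No depth applies to arrays, and their number limits the precision. Signals were scaled to a common 2% trimmed mean (factors 0.872 to 1.09), raised to the 20th percentile (4.54) and taken to log2. Of 45101 probe sets, 34958 had exactly 1 gene symbol, 932 several and 9211 were unlisted; Entrez identifiers of 34754 matched RefSeq. The brightest probe set stood for each gene, and genes were tested where their mean signal passed the 40th percentile of probe sets with a name (18.1). limma 3.58.1 in R 4.3.3 fitted the pair as a block with an intensity trend, with 5 residual degrees of freedom for the mean change and 3 for the model effects, so Ang II, with its single pair, borrows its spread from the other models; Benjamini-Hochberg adjustment ran over all genes tested at 0.05. Other probe sets were fitted as added features. The spread between arrays may be technical. The fit was tested on simulated data. All 10 genes are named; of each list, up to 4 genes past the threshold and up to 2 called 2-fold with the largest change. The genes and lists were chosen with earlier results of these data known.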

Additional observations from a re-analysis of the deposited data

How the results depend on the processing

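The calls depended more on the settings than the directions did. Over the mean of the 6 pairs 5 of the 9 genes passed, Uchl1 included, and 4 of 8 where controls alone had to pass the filter, a count added after seeing the data. The number was 6 with signals as deposited (800 of all genes, of which 86.5% were higher, against 1262 here, of which 47.5% were), 1 with quantile normalization (1136), 4 when the floor was the 10th percentile (1253) and 6 when it was the 40th (1315), 2 with the mean of all probe sets (694 of all genes), 0 without the filter on dim genes (0 of all genes), 0 without the intensity trend (241), and 0 to 6 leaving out each pair in turn (256 to 1485 of all genes). The 2 genes that passed with the mean of all probe sets were Tubb5 and Uchl1. Tubb2b (adjusted p = 0.0512), Tubb2a (0.286), Tuba1a (0.0547) and Tuba4a (0.0627) missed the threshold in limma's fit under that setting. Signals as deposited moved the median of all genes by up to 0.31 in log2 (TAC 1 month). In TAC 1 gene passed (272 of all genes), against 2 with signals as deposited (102) or the floor at the 40th percentile (297), 0 without the dim filter or the trend (0 in each), and 0 to 3 leaving out each pair (20 to 640). In MI 0 passed (114), and 0 to 4 leaving out each pair (0 to 1495).

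Pairing came from the shared model and time of a procedure and its control, and no replicate number links them. With no replicate block, 2 genes passed in the mean (473 of all genes), 2 in TAC (828) and 1 in MI (745). TAC minus MI was then 0.72 for Tubb2b, 0.31 for Tubb2a and -0.80 for Stmn1, and the uncalled values turned for Stmn1 in TAC (-0.18) and for Tuba1a (-0.22) and Tuba4a (-0.012) in TAC minus MI.

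With the mean of all probe sets Tubb2a was at 0.41 (adjusted p = 0.286), and Tubb6 turned to -0.15 in the mean, -0.057 in TAC, -0.38 in MI, -0.085 in TAC minus Ang II and -0.090 in the MI 1 week pair, and Stmn1 to -0.23 in TAC. Other probe sets gave -1.24 for Tubb6, -0.13 and -0.086 for Map4 and -0.13 for Stmn1. Leaving out each pair in turn gave a range across 0 for some uncalled values. For Stmn1 it ran from -0.0054 (without TAC 1 week) to 0.38 in the mean, from -0.36 (without TAC 1 week) to 0.60 in TAC, from -0.042 (without MI 1 week) to 0.89 in MI and from -0.80 to 0.18 in TAC minus MI. TAC minus MI ran from -0.50 (without TAC 1 day) to 0.66 for Tubb6, -0.41 to 0.19 for Tubb5, -0.10 to 0.33 for Tuba1a and -0.0081 to 0.30 for Tuba4a. The cause was not tested.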
